A study of Mus musculus with 13 samples.

Results

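The 46 genes described here drive or mark the cell division cycle: 17 regulators of G1, 12 genes of DNA replication and 17 genes of G2 and mitosis. They were chosen by name and matched on the gene symbols of the authors' comparison table, which lists 35734 genes. All 46 were joined to their transcripts and all 46 were among the 15655 genes tested, so none was lost to a filter on low values. The study put Ikzf1, which encodes the zinc finger factor Ikaros, into retinal cells of newborn mice and compared their RNA with that of control cells. Both groups came from P0 retinas of the CD1 strain, dissociated, transfected, put in culture and, after 9 h, sorted by their GFP. The control group (4 libraries) carried GFP alone and 400000 cells went into each library. The Ikzf1 group (4 libraries) carried Ikzf1-IRES-GFP, in which 1 transcript encodes both proteins, and 300000 cells went into each library. The labels call each library a biological replicate and name the cells retinal progenitor cells. The plasmid backbone and promoter used for these libraries are not given in the sources used here, nor is a batch or day. Nothing says whether replicates came from separate animals, so p-values measure the spread between these libraries.

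Retinal progenitors at this age are the cells of the retina that still divide, and they lie among neurons and photoreceptor precursors that have left the cycle. In G1, D-type cyclins with Cdk4 and Cdk6 and then E-type cyclins with Cdk2 phosphorylate the retinoblastoma proteins, which frees E2F factors to switch on the genes of replication. Inhibitors of the Cip/Kip and INK4 families hold these kinases back. Origins of replication are loaded with the MCM helicase by Cdc6 and Cdt1, and cyclin A and B kinases later drive the cell through G2 and mitosis.

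Libraries held 21.4 to 30.5 M estimated read pairs. Ikzf1 itself stood at 66.7 to 84.4 CPM in the controls and at 170541 to 187105 CPM in the Ikzf1 libraries, so each library matched its label. CPM is the count of a gene scaled to library depth with TMM factors. Reads of the plasmid count toward this gene. The groups differed broadly: at an adjusted p of 0.05 (edgeR), 59.1% of the 15655 genes were called, 29.3% as higher and 29.8% as lower in the Ikzf1 group. The median log2 fold change of all genes was 0.001. All 12 progenitor markers were detected, at a summed 1223 to 1356 CPM in the controls and 1104 to 1169 CPM in the Ikzf1 libraries. The 8 photoreceptor markers were detected too, at a summed 1080 to 1258 CPM and 719.8 to 828 CPM. Their sum was lower in every Ikzf1 library than in any control, and 7 of the 8 fell. Müller glial markers, mostly Vim, a gene that progenitors also express, summed to 2018 to 2318 CPM and to 1243 to 1378 CPM. Of 12 inner retinal neuron markers 9 were tested, with 3 higher and 4 lower (328 to 377 CPM and 313 to 363 CPM in sum). Microglial markers summed to at most 3.27 CPM, astrocyte markers to at most 6.09 CPM and pigment epithelium markers to at most 2.72 CPM in any library, and the 5 erythroid genes stayed under 5 normalised counts. The endothelial and mural list stood at 402 to 472 CPM and 207 to 246 CPM, of which nearly all was Kdr. Of its 4 tested genes Kdr alone was called (log2 fold change −1.02), and Pecam1, Cldn5 and Pdgfrb did not pass. In these bulk libraries a change in the share of cycling cells and a change of RNA per cell cannot be told apart, and the part of the marker changes in the results below was not tested.

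Among the cell cycle genes 22 were higher and 12 lower with Ikzf1, and 12 did not pass. That is 47.8% higher and 26.1% lower, beside 29.3% and 29.8% of all genes. G1 regulators were more often lower than higher (8 and 5 of 17), replication genes were divided (5 higher and 3 lower of 12), and genes of G2 and mitosis were mostly higher (12 of 17, with 1 lower). The median log2 fold change was 0.11 over the 46 genes, −0.20 over the G1 regulators, 0.08 over replication and 0.18 over G2 and mitosis. The G1 median moved with single libraries: it was −0.07 without control replicate 1, −0.10 without Ikzf1 replicate 3 and −0.02 by limma on log2 TPM. Of the 34 called genes 21 changed by under 0.5 on the log2 scale, as did 5062 of the 9253 called among all genes tested. A rise of at least 1 was found for Cdkn1c, E2f2 and Ccnb2, and a fall of at least 1 for Ccnd3. In 29 of the 46 genes the CPM of the groups did not overlap, which also held for 53.1% of all genes tested.

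**Figure D1:**
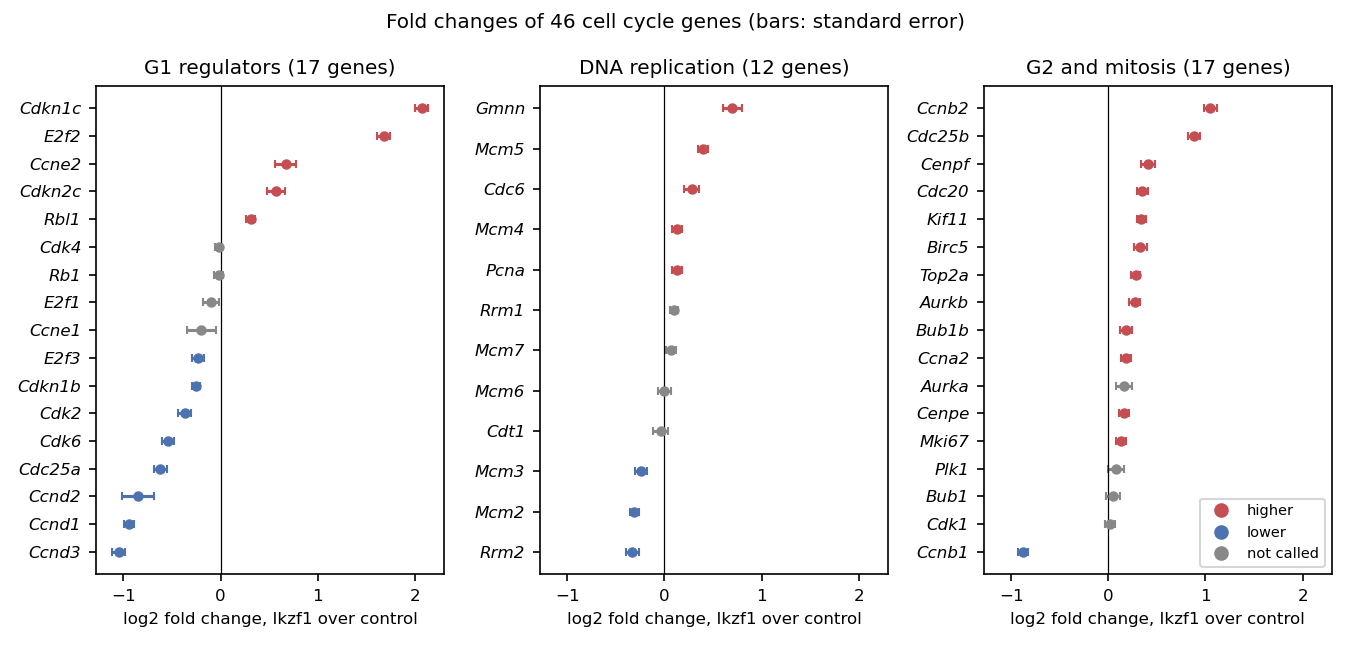
Log2 fold change of Ikzf1 over control for the 46 cell cycle genes, by phase, with the standard error as a bar and the edgeR call as colour. The G1 panel spreads from −1.05 (Ccnd3) to 2.07 (Cdkn1c), whereas in the G2 and mitosis panel Ccnb1 alone is called lower.

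Promoters are shown for 5 of these genes, because the B-type cyclins moved in opposite directions and because 2 genes with E2F letters did so too. The sequences come from RefSeq on GRCm38.p6. Each runs 5′ to 3′ on the gene's own strand from 230 bases before the RefSeq start site up to that site. For Ccnb1, 84 bases that lie inside the gene model of the authors' table were left off. Capitals mark 4 searched motifs on either strand. They are E2F letters (TTTGGCGC, TTTGCCGC, TTTCGCGC or TTTCCCGC), the CHR element of G2 and mitosis genes (TTTGAA), the CCAAT box (CCAAT) and an Ikaros core (TGGGAA).
Ccnb1 (chr13:100786571-100786716, minus strand): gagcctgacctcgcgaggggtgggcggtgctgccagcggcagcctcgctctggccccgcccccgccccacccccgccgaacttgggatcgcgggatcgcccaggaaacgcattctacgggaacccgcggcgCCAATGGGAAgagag
Ccnb2 (chr9:70421555-70421784, minus strand): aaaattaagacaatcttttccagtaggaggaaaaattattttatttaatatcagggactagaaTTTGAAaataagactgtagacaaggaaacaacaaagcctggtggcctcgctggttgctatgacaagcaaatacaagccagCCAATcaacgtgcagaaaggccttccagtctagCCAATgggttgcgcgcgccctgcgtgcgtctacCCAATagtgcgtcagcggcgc
Top2a (chr11:99024190-99024419, minus strand): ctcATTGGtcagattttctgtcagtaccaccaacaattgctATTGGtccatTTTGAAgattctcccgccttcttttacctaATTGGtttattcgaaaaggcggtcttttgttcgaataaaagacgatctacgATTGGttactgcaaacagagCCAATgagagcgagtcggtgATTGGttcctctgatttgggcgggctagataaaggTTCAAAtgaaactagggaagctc
Cdc25a (chr9:109875349-109875578, plus strand): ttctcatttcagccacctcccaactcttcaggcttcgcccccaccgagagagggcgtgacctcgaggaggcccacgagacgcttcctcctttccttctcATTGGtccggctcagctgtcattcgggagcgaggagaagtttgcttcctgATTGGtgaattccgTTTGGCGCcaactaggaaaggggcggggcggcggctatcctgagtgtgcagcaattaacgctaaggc
Mcm5 (chr8:75109279-75109508, plus strand): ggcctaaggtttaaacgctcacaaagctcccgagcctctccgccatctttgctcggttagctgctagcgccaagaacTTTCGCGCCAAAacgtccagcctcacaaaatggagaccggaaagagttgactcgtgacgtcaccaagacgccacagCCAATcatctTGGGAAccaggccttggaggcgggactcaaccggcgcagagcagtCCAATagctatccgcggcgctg
In the Ccnb1 stretch a CCAAT box and an Ikaros core share 1 base and read as 1 run of capitals. Another CCAAT box of Ccnb1, 67 bases before the start, lies in the part left off. The Ccnb2 stretch holds 3 CCAAT boxes, 87, 54 and 21 bases before the start, and 1 CHR match 167 bases before it. Another CHR match of Ccnb2, 4 bases after the start, lies beyond the stretch shown. Top2a, which was higher with Ikzf1, holds 6 CCAAT boxes and 2 CHR matches. Cdc25a, which was lower, has 1 E2F match 67 bases before the start. Mcm5, which was higher, has 2 E2F matches on opposite strands that share 4 bases. The Mcm5 stretch also holds an Ikaros core, 67 bases before the start.

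The promoter table matched 37 of the 46 genes, and the 9 others were Aurkb, Ccna2, Ccnd1, Ccnd2, Ccne2, Cdkn1c, Gmnn, Mcm4 and Rb1. In the window of 250 bases before to 50 after the start, E2F letters were found for 5 of 12 G1 regulators, 6 of 10 replication genes and 1 of 15 genes of G2 and mitosis. They were found for 4.42% of the tested genes in the table and for 2.60% of all its genes. CHR letters were found for 10 of 15 genes of G2 and mitosis, 2 of 12 G1 regulators and 1 of 10 replication genes, and for 14.8% of tested and 20.2% of all genes. Without the 50 bases after the start the first of these counts was 6 of 15. The 5 genes of G2 and mitosis with no CHR letters in the window were Birc5, Bub1, Ccnb1, Cdc25b and Cenpe. CCAAT was found for 14 of 15, 8 of 10 and 7 of 12 genes of mitosis, replication and G1, and for 43.0% of tested and 41.1% of all genes. The Ikaros core was found for 3 of 15, 4 of 10 and 2 of 12, which is 24.3% of the 37 genes, beside 26.9% of tested and 28.3% of all genes. These matches describe letters and were not measured as binding.

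All 3 D-type cyclins, the growth factor sensors of G1, fell to about the same degree. Ccnd1 (ENSMUSG00000070348, GRCm38 chromosome 7, 144929931 to 144939925, minus strand) stood at 438, 445, 401 and 423 CPM in control replicates 1 to 4 and at 234, 223, 220.0 and 211 CPM in Ikzf1 replicates 1 to 4. The log2 fold change was −0.94 ± 0.05 (standard error, edgeR adjusted p 2.42e-16). Every Ikzf1 library lay far below every control. Ccnd3 (ENSMUSG00000034165, chromosome 17, 47505051 to 47599691, plus strand) gave 41.4, 38.7, 37.9 and 37.5 CPM in the controls and 17.0, 18.4, 18.8 and 20.9 CPM with Ikzf1, a change of −1.05 ± 0.07 (adjusted p 2.33e-13). The scarce Ccnd2 (ENSMUSG00000000184, chromosome 6, 127125162 to 127152193, minus strand) gave 7.75, 6.49, 5.98 and 6.22 CPM against 4.65, 4.20, 3.46 and 2.47 CPM, a change of −0.85 ± 0.16 (adjusted p 5.54e-05). The groups did not overlap for any of the 3. Per transcript length, Ccnd1 made up most of this family, at 259.9 ± 12.3 TPM (SD, n = 4) beside 45.9 ± 1.52 TPM of Ccnd3 and 2.81 ± 0.746 TPM of Ccnd2 in the controls. The summed level was 297 to 322 TPM in the controls and 159.8 to 166 TPM with Ikzf1. Ccnd1 held 84.2% ± 0.601 of that sum in the controls and 85.4% ± 1.43 with Ikzf1, and these shares overlapped. Ccnd1 and Ccnd3 overlap genes of the opposite strand whose reads cannot be told apart if strand was not used in counting. LTO1 beside Ccnd1 did not pass (0.09, adjusted p 0.249), and Bysl beside Ccnd3 was lower by less (−0.18, adjusted p 0.0142).

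The kinases of G1 were not all lower. Cdk6, a partner of the D-type cyclins, fell from 75.6 ± 4.82 to 51.9 ± 3.64 CPM (SD, n = 4), a log2 fold change of −0.54 ± 0.06 (standard error, edgeR adjusted p 2.92e-09). Cdk2, the partner of the E-type cyclins, fell from 27.7 ± 2.38 to 21.4 ± 1.40 CPM (−0.37 ± 0.07, adjusted p 8.33e-05). Cdc25a, the phosphatase that activates Cdk2, fell from 27.8 ± 2.17 to 18.1 ± 0.938 CPM (−0.62 ± 0.07, adjusted p 2.88e-08). For each of these 3 genes the groups were apart. Cdk4 did not pass, at 221 to 243 CPM in the controls and 224 to 230.2 CPM with Ikzf1, with an approximate 95% interval of −0.11 to 0.06 for its log2 fold change. It was the most abundant of the 46 genes per length, at 697 ± 14.8 and 701 ± 8.74 TPM. Tspan31, which overlaps Cdk4 on the opposite strand, fell by 1.25 on the log2 scale.

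The E-type cyclins differed from each other. Ccne2 (chromosome 4, 11191351 to 11204779, plus strand) gave 5.69, 5.79, 5.44 and 5.19 CPM in the controls and 9.09, 9.09, 8.83 and 8.07 CPM with Ikzf1. It rose by 0.67 ± 0.11 on the log2 scale (edgeR adjusted p 8.86e-06). Ccne1 overlapped between the groups (4.35 to 6.52 and 3.54 to 5.25 CPM) and did not pass, with an interval of −0.50 to 0.10. Ints8, which overlaps Ccne2, stood at 117 and 123 CPM on average and did not pass (adjusted p 0.199).

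CDK inhibitors also went in different directions, and the largest rise of all 46 genes was here. Cdkn1c (p57, ENSMUSG00000037664, chromosome 7, 143458339 to 143461050, minus strand), a Cip/Kip inhibitor known for cell cycle exit in the retina, gave 13.4, 12.5, 14.2 and 14.1 CPM in the controls. With Ikzf1 it gave 52.4, 61.0, 54.3 and 59.9 CPM. The rise was 4.20-fold in mean CPM and 2.07 ± 0.07 on the log2 scale (edgeR adjusted p 5.71e-20). Cdkn1b (p27, ENSMUSG00000003031, chromosome 6, 134920401 to 134925513, plus strand), of the same family, gave 206, 207, 217 and 207 CPM in the controls and 179, 178, 170.0 and 178 CPM with Ikzf1. It fell by 0.25 on the log2 scale, standard error 0.04 (adjusted p 7.74e-06). Both genes were separated between the groups, on opposite sides. Cdkn2c (p18, INK4 family) rose from 10.6 ± 0.585 to 15.8 ± 1.01 CPM (0.57 ± 0.09, adjusted p 1.86e-06). On the TPM scale Cdkn1c stood at 0.122 to 0.155 of the Cdkn1b level in the controls and at 0.477 to 0.698 of it with Ikzf1. These 3 inhibitors summed to 200.0 to 220.0 TPM in the controls and to 254 to 288 TPM with Ikzf1. The sum went the other way once Cdkn1a, the most abundant inhibitor of the wider lists (554 TPM in the controls and 123 TPM with Ikzf1), and Cdkn2a, Cdkn2b and Cdkn2d were added. All 7 summed to 793 to 810.0 TPM in the controls and to 408 to 449 TPM with Ikzf1. Relative to Ccnd1, Cdkn1b stood at 0.618 to 0.731 in the controls and at 1.07 to 1.15 with Ikzf1, since Ccnd1 fell further.

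The targets of these kinases and the E2F factors they release changed unevenly. E2f2 (ENSMUSG00000018983, chromosome 4, 136172394 to 136196057, plus strand), an activator E2F, gave 20.2, 17.5, 16.7 and 17.0 CPM in the controls and 50.9, 55.3, 59.6 and 61.8 CPM with Ikzf1. It rose by 1.68 ± 0.07 on the log2 scale (edgeR adjusted p 2.53e-17), and no library came near the other group. E2f3, another activator, fell from 33.9 to 37.3 CPM in the controls to 29.1 to 30.9 CPM with Ikzf1 (−0.23 ± 0.06, adjusted p 0.00160), a call lost by limma on log2 TPM (−0.15, adjusted p 0.105). E2f1 gave 17.4 to 21.4 CPM in the controls and 17.4 to 20.2 CPM with Ikzf1 and did not pass, with an interval of −0.25 to 0.06. Per length E2f2 made up 18.9 to 22.0% of the 3 activators in the controls and 49.8 to 53.8% with Ikzf1, and their sum went from 38.7 to 43.4 TPM up to 59.1 to 68.1 TPM. Rbl1 (p107), itself known as an E2F target, rose from 56.4 ± 0.932 to 70.1 ± 4.63 CPM (0.31 ± 0.05, adjusted p 7.22e-06). Rb1 stayed within overlapping ranges of 145 to 157 and 142 to 159 CPM, with an interval of −0.11 to 0.07.

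**Figure D2:**
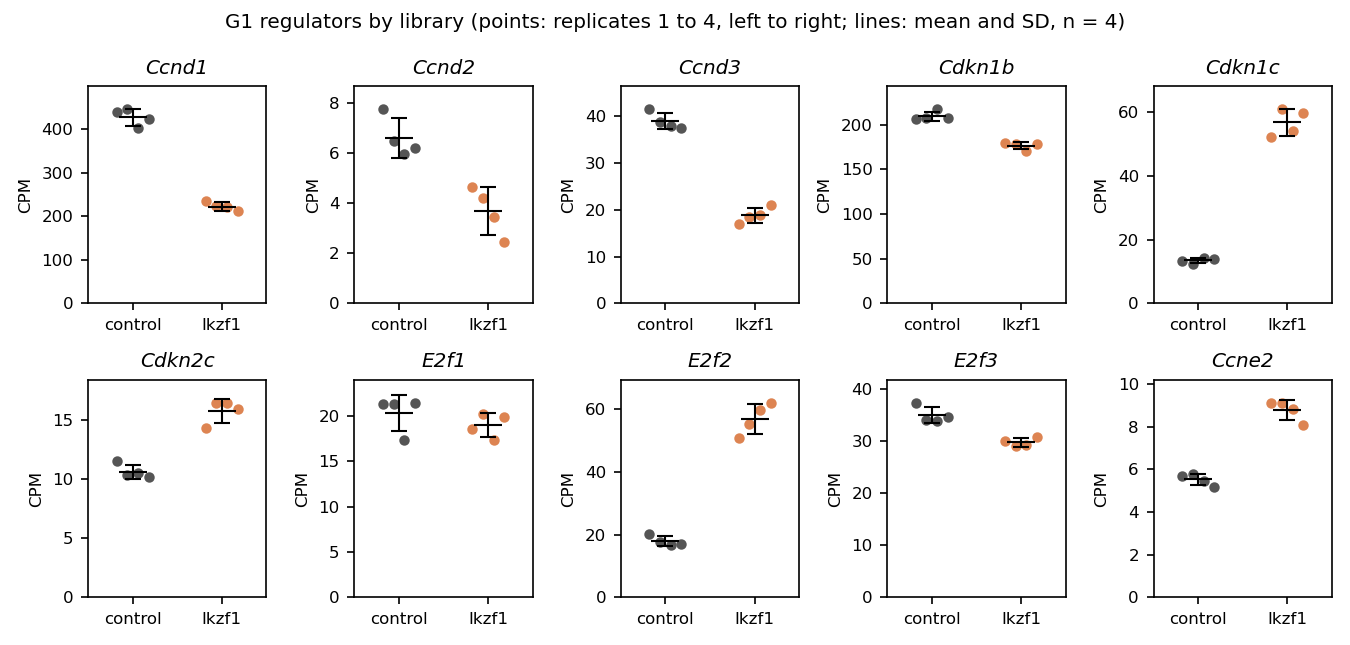
CPM of 10 G1 genes in each library; points are replicates 1 to 4 from left to right, and lines give the mean and SD (n = 4 a group). Ccnd1, Ccnd2, Ccnd3, Cdkn1b and E2f3 lie lower with Ikzf1, Cdkn1c, Cdkn2c, E2f2 and Ccne2 lie higher, and the E2f1 points overlap.

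Replication genes moved little and in both directions. The licensing inhibitor geminin, which blocks Cdt1 outside G1, had the largest change. Gmnn (ENSMUSG00000006715, chromosome 13, 24751845 to 24761923, minus strand) gave 9.17, 9.10, 8.99 and 9.20 CPM in the controls and 14.5, 12.2, 17.3 and 15.2 CPM with Ikzf1. It rose by 0.70 ± 0.10 on the log2 scale (edgeR adjusted p 6.23e-07), and the Ikzf1 libraries varied more than the controls. Cdt1, the loading factor that geminin binds, gave 20.9 to 24.8 and 19.4 to 25.2 CPM and did not pass, with an interval of −0.20 to 0.11. Cdc6, which loads the helicase with Cdt1, gave 12.5, 14.7, 13.4 and 12.2 CPM in the controls and 14.8, 16.4, 16.7 and 16.2 CPM with Ikzf1. Its lowest Ikzf1 library was only just above its highest control. The rise of 0.28 ± 0.08 (adjusted p 0.00555) was lost with a length offset (0.22, adjusted p 0.0624).

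The 6 subunits of the MCM helicase, which act as a ring with 1 copy of each, did not move together. Mcm2 (chromosome 6, 88883474 to 88898780, minus strand) gave 77.8, 76.3, 73.1 and 79.6 CPM in the controls and 64.2, 57.9, 65.0 and 60.1 CPM with Ikzf1, a fall of 0.31 on the log2 scale, standard error 0.05 (edgeR adjusted p 4.88e-06). Mcm5 (ENSMUSG00000005410, chromosome 8, 75109569 to 75128439, plus strand) gave 61.7, 62.6, 58.5 and 63.5 CPM against 80.7, 79.7, 82.8 and 80.5 CPM, a rise of 0.40 ± 0.05 (adjusted p 2.81e-08). Both were separated between the groups, in opposite directions. Mcm3 fell from 51.7 ± 3.45 to 43.8 ± 2.36 CPM (−0.24 ± 0.06, adjusted p 0.000756), though Ikzf1 replicate 3 (47.3 CPM) lay just above control replicate 3 (47.1 CPM) and the call was lost by limma on log2 TPM (adjusted p 0.149). Mcm4 passed narrowly (0.13 ± 0.05, adjusted p 0.0297) with overlapping groups. Its call was lost without control replicate 1 (adjusted p 0.0823), without control replicate 3 (adjusted p 0.127), without Ikzf1 replicate 3 (adjusted p 0.103) and with the replicate block (adjusted p 0.0522). The Mcm4 call was also lost with a length offset (0.046, adjusted p 0.597) and by limma on log2 TPM (0.11, adjusted p 0.193). Mcm6 and Mcm7 did not pass, with intervals of −0.13 to 0.14 and −0.03 to 0.16, although Mcm7 did by limma on log2 TPM (0.17, adjusted p 0.0160). Per length, the summed 6 subunits stood at 341 to 374 TPM in the controls and at 372 to 403 TPM with Ikzf1. The most abundant subunit exceeded the least abundant by 2.49 to 2.78 times in the controls and by 2.98 to 3.74 times with Ikzf1.

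At the fork itself, Pcna, the sliding clamp of the polymerases, gave 93.7, 108, 104 and 101 CPM in the controls and 114, 112, 116 and 104 CPM with Ikzf1. The groups overlapped, and the rise of 0.13 ± 0.05 (edgeR adjusted p 0.0223) was lost without control replicate 1 (adjusted p 0.105) and without Ikzf1 replicate 3 (adjusted p 0.0779). A length offset lost the Pcna call too (0.15, adjusted p 0.0634). Pcna-ps2, a processed pseudogene at 23.9% of the Pcna level in the controls, was also higher (0.23, adjusted p 0.0152), and reads of the pair cannot be told apart where their sequences are the same. Rrm2, the regulated subunit of ribonucleotide reductase, gave 29.4, 25.7, 22.9 and 27.5 CPM in the controls and 20.04, 20.9, 22.1 and 20.8 CPM with Ikzf1. The groups came close but did not overlap. It fell by 0.33 on the log2 scale, standard error 0.07 (adjusted p 0.000396). The partner subunit Rrm1 did not pass (115 to 119.9 and 117 to 129 CPM, adjusted p 0.0519), and passed without Ikzf1 replicate 4 (adjusted p 0.00956). It also passed narrowly by DESeq2 and under the 3 other scalings of library size (adjusted p 0.0378 to 0.0488). The count of 5 higher replication genes was 3 without control replicate 1 and 3 without Ikzf1 replicate 3.

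The 2 B-type cyclins, which activate Cdk1 at the entry to mitosis, moved in opposite directions. Ccnb1 (ENSMUSG00000041431, chromosome 13, 100778650 to 100786570, minus strand) gave 74.6, 81.1, 69.3 and 75.2 CPM in the controls and 43.4, 40.0, 40.1 and 39.2 CPM with Ikzf1. It fell by 0.88 on the log2 scale, standard error 0.05 (edgeR adjusted p 6.97e-14). Ccnb2 (ENSMUSG00000032218, chromosome 9, 70407692 to 70421547, minus strand) gave 14.4, 14.9, 13.4 and 15.2 CPM in the controls and 31.4, 29.0, 30.1 and 29.4 CPM with Ikzf1. It rose by 1.05 ± 0.07 (adjusted p 3.78e-13). Neither gene had a library that reached the other group. Per length, Ccnb2 stood at 0.232 to 0.257 of the Ccnb1 level in the controls and at 0.927 to 1.03 of it with Ikzf1, so that the pair went from unequal to about equal. Their sum stood at 101 to 122 TPM in the controls and at 94.8 to 103 TPM with Ikzf1, and these ranges overlapped. The pseudogene Ccnb2-ps stood at 3.70% of the Ccnb2 level in the controls and was lower with Ikzf1 (0.535 and 0.131 CPM on average), and the pseudogene Ccnb1-ps was listed at 0.

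Their kinase Cdk1 did not pass, at 51.6 to 58.5 CPM in the controls and 55.6 to 57.5 CPM with Ikzf1, with an interval of −0.08 to 0.12. Cdc25b (ENSMUSG00000027330, chromosome 2, 131186949 to 131198497, plus strand), the phosphatase that starts the activation of Cdk1 in G2, gave 36.1, 34.8, 31.8 and 32.9 CPM in the controls. With Ikzf1 it gave 57.4, 65.2, 61.4 and 64.9 CPM, a rise of 0.88 ± 0.06 (edgeR adjusted p 2.46e-13). It moved the other way from Cdc25a, the phosphatase of the same family that acts earlier. Ccna2, the cyclin of S phase and G2, rose from 109.5 ± 3.51 to 124 ± 6.68 CPM (0.18 ± 0.05, adjusted p 0.00107). Spef1, which overlaps Cdc25b on the opposite strand, was lower (−0.25, adjusted p 0.00681).

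The remaining genes of G2 and mitosis were a little higher or did not pass. Cenpf, a kinetochore protein of late cycle, gave 103, 124, 122 and 132 CPM in the controls and 168, 142, 167 and 159 CPM with Ikzf1, a rise of 0.41 ± 0.07 (edgeR adjusted p 0.000416). Cdc20, which activates the anaphase-promoting complex, gave 48.5, 50.6, 41.8 and 51.7 CPM against 60.4, 60.1, 58.4 and 65.7 CPM, a rise of 0.35 ± 0.06 (adjusted p 1.77e-05). In both genes every Ikzf1 library exceeded every control. Top2a, the topoisomerase that untangles sister chromatids, gave 317, 337, 306 and 348 CPM against 419, 386, 418 and 371 CPM, a rise of 0.28 ± 0.05 (adjusted p 1.2e-05). The motor Kif11 (0.34), the chromosomal passenger proteins Birc5 (0.33) and Aurkb (0.27) and the spindle checkpoint kinase Bub1b (0.18) also rose, and their groups did not overlap. The Bub1b call was lost without control replicate 3 (0.11, adjusted p 0.0836). The kinetochore motor Cenpe rose by 0.16, with overlapping groups. It lost its call with a length offset (adjusted p 0.0790) and by limma on log2 TPM (adjusted p 0.0515). Aurka (0.16, adjusted p 0.0752), Plk1 (0.08) and Bub1 (0.05) did not pass, although Aurka did without control replicate 2 (adjusted p 0.0407) and without Ikzf1 replicate 2 (adjusted p 0.0280).

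Mki67, the proliferation marker read by Ki-67 staining, gave 369, 438, 409 and 445 CPM in the controls and 470.2, 434, 469.8 and 444 CPM with Ikzf1. The groups overlapped, and the first control stood below all other libraries. The rise of 0.13 ± 0.05 (edgeR adjusted p 0.0325) was lost in 4 of the 8 fits that left out 1 library. The adjusted p was 0.174 without control replicate 1, 0.0808 without control replicate 3, 0.0761 without Ikzf1 replicate 1 and 0.0912 without Ikzf1 replicate 3. With the replicate block it was 0.0552, with a length offset 0.227 and by limma on log2 TPM 0.0835. The authors' deposited table gave Mki67 an adjusted p of 0.264.

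**Figure D3:**
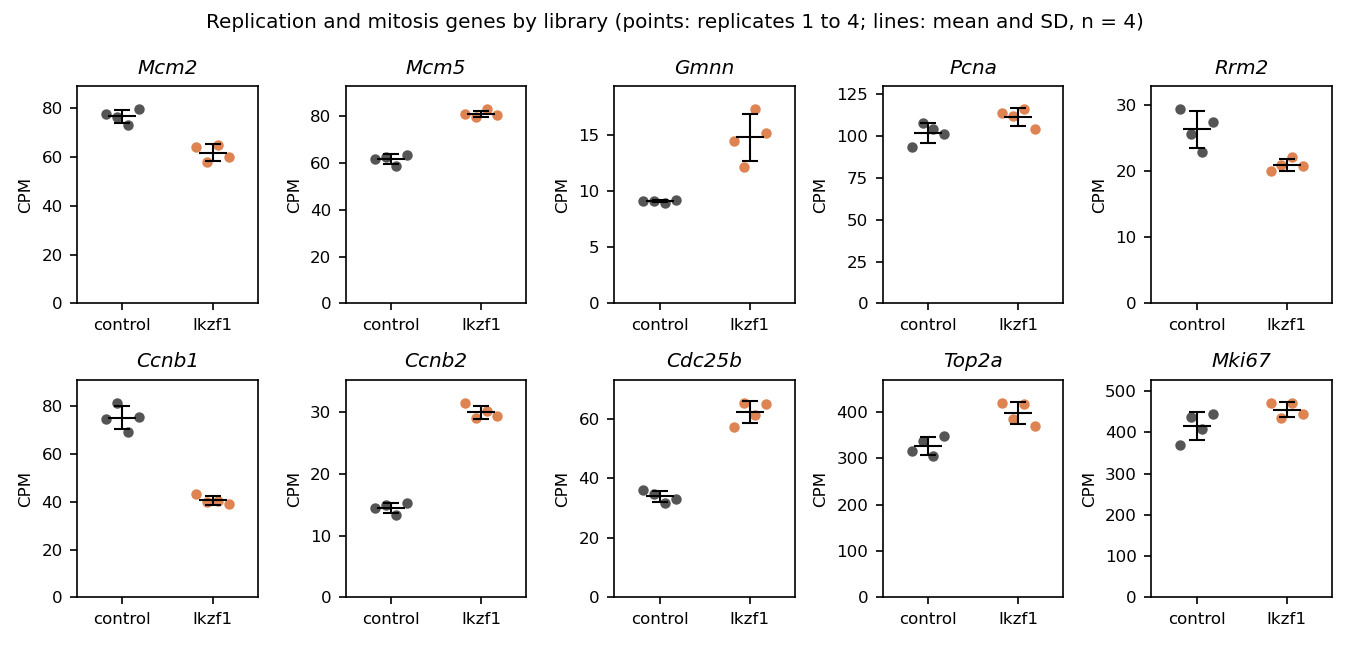
CPM of 5 replication genes (top) and 5 genes of G2 and mitosis (bottom) in each library, with the mean and SD (n = 4 a group). Ccnb1 falls while Ccnb2 rises, Mcm2 and Mcm5 go apart, and the Pcna and Mki67 points overlap.

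Levels were compared between genes per transcript length, on TPM rescaled without Ikzf1 and mitochondrial genes. In the controls the order began with Cdk4 (697 TPM), Ccnd1 (259.9 TPM), Top2a (198 TPM), Cdkn1b (174 TPM), Pcna (169 TPM) and Cdk1 (131 TPM). Cdkn1b and Pcna lay within 1 SD of each other. It ended with E2f2 (8.38 TPM), Ccne1 (6.61 TPM), Ccne2 (5.09 TPM) and Ccnd2 (2.81 TPM). With Ikzf1 Ccnd1 stood at 139.5 ± 3.73 TPM, below Top2a (254 ± 10.4 TPM), Pcna (196 ± 12.1 TPM) and Cdkn1b (154 ± 6.05 TPM). Cdkn1c stood at 23.4 ± 2.92 TPM in the controls, near Aurka, and at 96.8 ± 14.03 TPM with Ikzf1 (SD, n = 4), near Ccna2 and Mki67. Ikzf1 replicate 1 (75.90 TPM) was the lowest of its group, and the other 3 lay between 101.5 and 105.4 TPM.

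**Figure D4:**
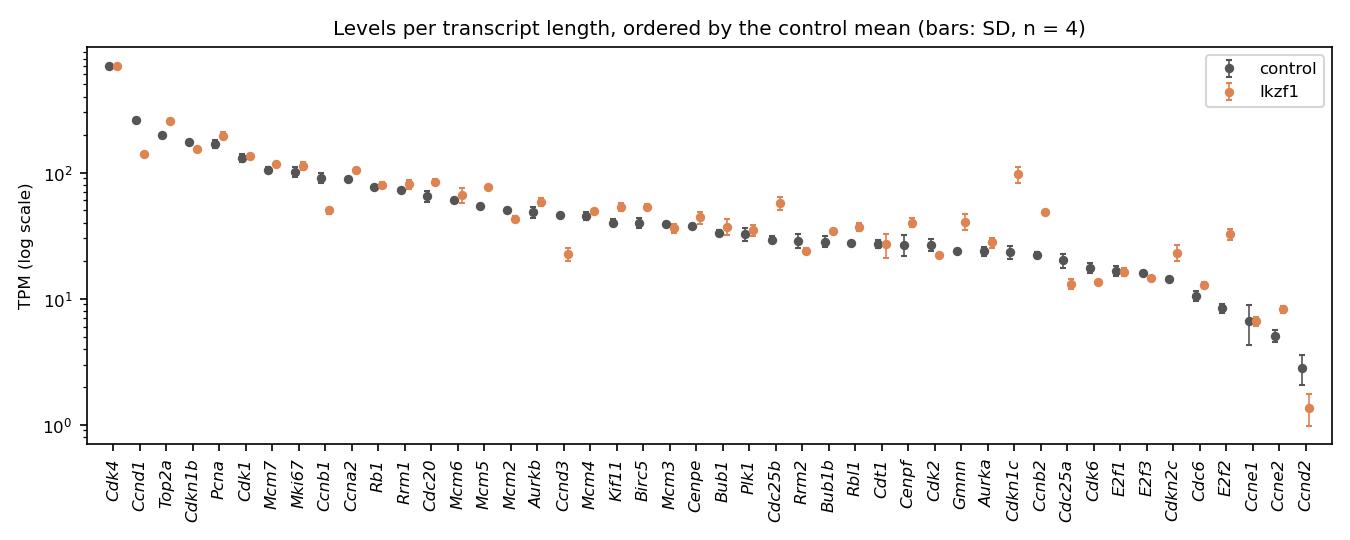
Mean TPM of the 46 genes on a log axis, ordered by the control mean, with the SD of 4 libraries as a bar. Control and Ikzf1 points lie close together for most genes. With Ikzf1, Cdkn1c, E2f2, Ccnb2 and Cdc25b stand well above their control points and Ccnd1, Ccnd2, Ccnd3 and Ccnb1 well below.

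The summed CPM of each phase followed its leading genes. G1 regulators summed to 1326 to 1386 CPM in the controls and to 1147 to 1154 CPM with Ikzf1, while Ccnd1 alone went from a mean of 427 to 222 CPM. Replication genes summed to 684 to 741 CPM and 713 to 780.1 CPM, which overlapped. Genes of G2 and mitosis summed to 1519 to 1683 CPM and 1757 to 1914 CPM. For 20 of the 46 genes 2 or more transcripts each held over 10% of the gene, and the share of the leading transcript was compared. None of the 20 passed the two-sided exact permutation test (8 libraries, smallest p it allows 0.0286), and the lowest adjusted p was 0.857. A single gene at the smallest p would have had an adjusted p of 0.571, so this design could not call a single switch, and the result does not show that the shares were alike. The smallest unadjusted p was 0.0571, for Mcm4, whose leading transcript held 82.0% ± 4.72 in the controls and 88.8% ± 2.80 with Ikzf1 (SD, n = 4).

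Other genes of the same phases were counted in wider lists. Of 31 further G1 regulators 10 were higher and 15 lower with Ikzf1 (32.3% and 48.4%, beside 29.3% and 29.8% of all genes tested), with a median log2 fold change of −0.13 (−0.03 by limma on log2 TPM). The 3 largest falls were Cdkn1a (p21, a Cip/Kip inhibitor and p53 target), from 453 to 94.2 CPM (−2.27), Myc, from 72.7 to 19.3 CPM (−1.91), and cyclin G1 (Ccng1), from 469 to 185 CPM (−1.35). The 3 largest rises were Ccng2 (0.65), the INK4 inhibitor Cdkn2b (0.61) and the antiproliferative gene Btg1 (0.46). Within the Cip/Kip family Cdkn1c rose while Cdkn1a and Cdkn1b fell. Of the INK4 family Cdkn2b and Cdkn2c rose, and Cdkn2d fell from 17.9 to 14.7 CPM (−0.28, edgeR adjusted p 0.00608), a call lost with a length offset (adjusted p 0.103) and by limma on log2 TPM (adjusted p 0.227). Cdkn2a, under 1 CPM, did not pass (0.08, adjusted p 0.863). Of 44 further replication genes 20 were higher and 8 lower (45.5% and 18.2%, median 0.13). In all, 63.6% of that list was called, near the 59.1% of all genes. The chromatin assembly subunit Chaf1b (0.86), the GINS subunit Gins1 (0.71) and the fork protection gene Timeless (0.66) rose most. In the authors' deposited table Timeless rose by 0.30, less than Pola2 (0.57) and Rfc1 (0.57) of the same list. The polymerase subunits Pold2 (−0.90) and Pola1 (−0.75) and thymidylate synthase Tyms (−0.67) fell most.

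Of 46 further genes of G2 and mitosis 26 were higher and 8 lower (56.5% and 17.4%, beside 29.3% and 29.8% of all genes tested, median 0.19). Foxm1, a transcription factor of the G2 programme, rose from 63.0 to 74.1 CPM in the controls to 127 to 150.3 CPM with Ikzf1 (0.97 ± 0.06, edgeR adjusted p 1.14e-13), the largest rise of that list. It was followed by Hmmr (0.62) and the centrosomal kinase Nek2 (0.58). The largest falls were the spindle protein Ckap2 (−1.10), the centromeric histone Cenpa (−0.74) and the F-box gene Ccnf (−0.73). Among 5 linker histones 3 were lower and 1 higher, too few to set against the 59.1% of all genes called. Hist1h1d fell from 17.2 to 5.01 CPM (−1.79 ± 0.13, adjusted p 1.5e-10) and Hist1h1e from 18.7 to 21.6 CPM in the controls to 13.9 to 17.0 CPM with Ikzf1 (−0.34). Hist1h1b, with 15 to 36 reads in a library, passed narrowly (−0.72, adjusted p 0.0459). Its call was lost in 7 of the 8 fits that left out 1 library (adjusted p 0.0510 to 0.131), all but that without control replicate 2, by DESeq2 (adjusted p 0.0735) and with the replicate block (adjusted p 0.0784). Hist1h1c did not pass (adjusted p 0.0661) but did without control replicate 4 (adjusted p 0.00248), without Ikzf1 replicate 2 (adjusted p 0.0475), by DESeq2 (adjusted p 0.0121) and with the replicate block (adjusted p 0.00520). Hist1h1a rose by 0.87 on about 1 CPM, and lost its call without control replicate 3 (adjusted p 0.0790), without Ikzf1 replicate 2 (adjusted p 0.0533) and without Ikzf1 replicate 3 (adjusted p 0.0505).

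**Figure D5:**
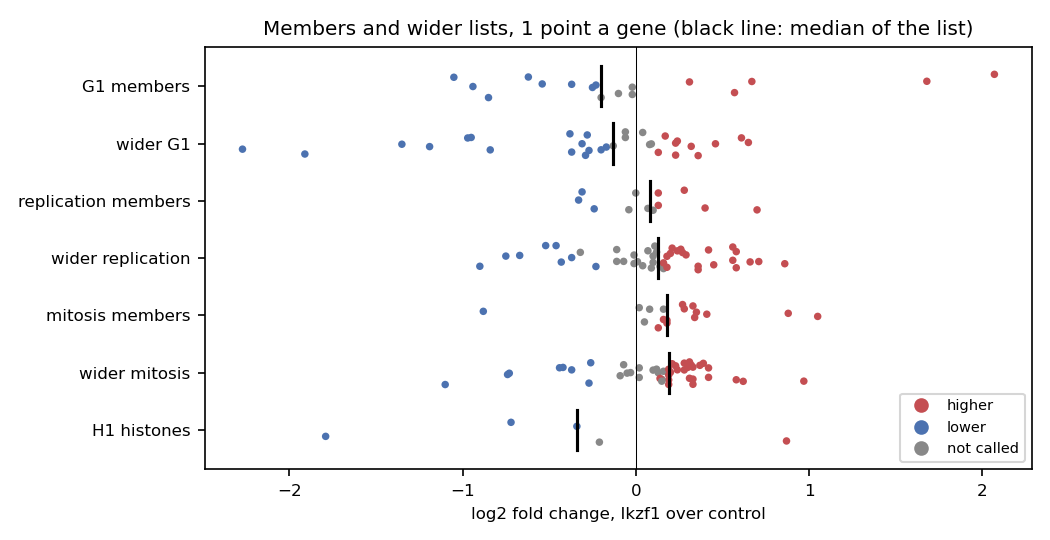
Log2 fold change of Ikzf1 over control for each gene of the 3 member lists, the 3 wider lists and the linker histones, coloured by call, with the median of the list as a black line. Medians lie below 0 for both G1 lists and the histones and above 0 for both replication and both mitosis lists.

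The authors' deposited table called 17 of the 46 genes higher and 12 lower at its adjusted p of 0.05. In the authors' deposited table Mcm4, Pcna, Cdc6, Mki67 and Cenpe did not pass, which are the 5 genes called here and not there. No gene was called there with the opposite direction. With a length offset the same 5 genes lost their calls here (edgeR adjusted p 0.0624 to 0.597), and 17 genes were higher and 12 lower. The cause of the difference between the 2 sets of calls was not tested. The gene spans of 14 of the 46 genes overlap another gene, and reads could be shared where the transcripts overlap too. Most of the overlapping genes lie on the opposite strand, and the use of strand in counting is not stated. Cdt1 and Kif11 each overlap a gene on their own strand (Galnt2l and Gm8663), which the use of strand would not separate. Galnt2l was higher by 0.61 on the log2 scale (edgeR adjusted p 3.02e-05). For 11 of the 14 the overlapping gene was tested.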

How the data were processed

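RNA was measured in 8 libraries, made with a stranded kit after rRNA depletion and sequenced in pairs of 50 cycles, per the labels' protocols. The deposited files held estimated counts and TPM values of each transcript, for which the submitters' processing notes name Salmon. Version, index and strand setting are not given in the sources used here. The deposited comparison table, made by the authors with DESeq2 per the same notes, gave a mean signal (normalised count), a log2 fold change with its standard error and an adjusted p-value for each gene, per the file headers. Its coordinates were taken as GRCm38, the notes naming mm10 and mm9. Peak lists of the series were not used here.

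Transcripts were joined to genes as the run of up to 60 neighbours whose estimated counts match the mean signal of the authors' deposited table within 5e-09. A mean signal of 5 or more was listed for 16815 genes, of which 16809 were joined (99.96%), and 73 found a run even after their means had been moved slightly, a measure of chance matches. Joined and deposited fold changes had r = 0.998 over 11908 genes, which are not independent replicates.

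Counts were summed, rounded and filtered with filterByExpr. The groups were compared with edgeR 4.0.16 (TMM, robust quasi-likelihood F test, two-sided, Benjamini-Hochberg adjustment over 15655 genes, threshold 0.05). The standard error is the absolute log2 fold change over the square root of F, and intervals are 1.96 standard errors on each side. The edgeR fit was tested on simulated counts. Replicates differed by more than counting error (4.41 to 11.3 times in squared difference, a mean over genes). No library sequenced again was at hand for comparison, so this does not settle whether all replicates were separate libraries. Whether they share a cell or RNA pool was not tested. Alternatives were DESeq2 1.42.0, limma 3.58.1 on log2(TPM + 0.5), other scalings and filters, a length offset, a replicate block, a threshold of 0.01 and leaving out each library. The members and lists were chosen with earlier results of these data known. Per-library values are given for the 5 called members of each phase with the largest change and for 8 genes named in advance. In each wider list the 3 largest rises and falls with at least 1 CPM are named, and Hist1h1b, Hist1h1c, Cdkn2a, Cdkn2d and Ccne2 were added after their values were seen, as were the sums and ratios of TPM and the promoters shown.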

Additional observations from a re-analysis of the deposited data

Results flagged for a closer look

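In 92 groups of 4 libraries (46 genes, 2 groups) 3 libraries stood apart by Dixon's ratio of the gap to the range, above its 95% value. Chance flags about 1 in 20 such groups. Cdkn1b was 217 CPM in control replicate 3 and 206 to 207 CPM in the other controls (ratio 0.927). E2f1 was 17.4 CPM in control replicate 3 and 21.3 to 21.4 CPM in the other controls (ratio 0.971). Cenpe was 114 CPM in Ikzf1 replicate 2 and 131 to 133 CPM in the other Ikzf1 libraries (ratio 0.875).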

How the results depend on the processing

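Under 17 alternatives 26 of the 34 called genes kept call and direction, and no called gene reversed. The 8 that lost a call were Mcm4, Mki67, Pcna, Bub1b, Cenpe, Cdc6, E2f3 and Mcm3. Of the genes not called, limma on log2 TPM reversed Ccne1 (0.046), Cdk4 (0.008) and Rb1 (0.057), and a length offset reversed Cdk1 (−0.032). Leaving out 1 library gave ranges across 0 for Cdk4 (−0.046 to 0.000), Rb1 (−0.057 to 0.003), Mcm6 (−0.056 to 0.060), Cdt1 (−0.094 to 0.023), Cdk1 (−0.019 to 0.040) and Plk1 (−0.004 to 0.13). The 5 higher replication genes were 2 with a length offset, 3 at a threshold of 0.01 and 3 to 6 without 1 library. The 1 higher linker histone was 0 at a threshold of 0.01 and 0 to 1 without 1 library. A length offset moved the G1 median from −0.20 to −0.09. All 46 genes gave 19 to 23 higher and 12 lower without 1 library. A length offset gave 17 higher and 12 lower, and a threshold of 0.01 gave 18 higher and 12 lower. By limma on log2 TPM, 21 were higher and 10 lower. Limma on log2 TPM raised the share of higher genes among all calls from 49.5% to 59.0%. It also moved the median of all genes most, to 0.060. With the replicate block, 20 genes were higher and 12 lower, and among the 46 genes Mcm4 and Mki67 alone lost a call. Same-numbered libraries did not deviate together (r −0.0511 to 0.00509 over genes), so the numbers were not taken as pairs. Depth limits Ccnd2, Ccne1 and Ccne2 most, at under 10 CPM in every library.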

Other observations

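Among the Ikzf1 libraries, replicates 1 and 3 held higher CPM than replicates 2 and 4 for some genes of replication and mitosis. Mcm6 was 87.6 and 92.1 CPM in replicates 1 and 3 and 74.3 and 72.9 CPM in replicates 2 and 4. Kif11 was 119 and 120.2 CPM against 102 and 106 CPM, and Bub1 was 56.1 and 57.1 CPM against 48.5 and 46.7 CPM. In the controls Mcm6 was 81.0, 81.1, 76.5 and 87.2 CPM in replicates 1 to 4, with no such gap. These genes were picked after their values were seen, and the cause was not tested.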
